A study of Mus musculus with 6 samples.

Results

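Intestine cells made to express BARX1 were set against control stomach cells, to find which stomach features BARX1 alone did not give and which intestinal features persisted. The comparison rests on 4 of the 6 arrays of the series: both arrays labelled as BARX1-overexpressing intestine and both labelled as wild-type stomach. The remaining 2 arrays, of control intestine, served to say in which organ a gene was normally high. RNA from cultured gut cells of C57BL/6 mouse embryos was hybridised to Affymetrix 3′ arrays. The embryos were at day 13.5 of gestation. In all 3 groups the tissue was digested with collagenase-dispase and then trypsin, which the series describes as a way to remove endoderm and keep mesenchyme, and the cells were then cultured for 3 days with 20% fetal bovine serum.

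The Barx1 intestine embryos were Rosa26+/Barx1;Bapx1+/Cre, so that the Cre recombinase expressed from the Bapx1 locus switched on Barx1 from Rosa26. The controls were Rosa26+/Barx1 or Bapx1+/Cre, and the labels do not say which of these alleles a given array carried. Barx1 could be switched on only in cells that had expressed Bapx1 (Nkx3-2), and a bulk array does not show in what share of the intestinal cells this happened. In these bulk samples, fewer cells of a type and less RNA per cell cannot be told apart. The labels call the 2 arrays of a group biological replicates but do not say whether they came from separate embryos, litters or pools, so the p-values measure only the spread between these arrays.

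BARX1, a homeobox protein, marks the mesenchyme of the embryonic stomach. In the mouse embryo this mesenchyme, through BARX1, limits Wnt signalling to the overlying endoderm by way of secreted antagonists, and the endoderm then takes a gastric course. The stomach also differs from the intestine in its thick smooth muscle wall, in the pyloric sphincter, where NKX2-5, GATA3, SIX2 and ISL1 act, and in its neighbourhood to the spleen, whose anlage depends on TLX1, NKX3-2 and other mesenchymal factors. Position along the gut is marked by Hox genes, of which those of higher paralog number are generally expressed further back.

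Values are log2 expression on the scale of RMA, a method that corrects background, brings arrays to a common distribution and summarises the probes of each probe set. Each of 12393 genes was represented by 1 probe set. A difference is Barx1 intestine minus stomach unless another is named, and it was called at an adjusted p under 0.05 in limma, with Benjamini-Hochberg adjustment over all genes. By this test 317 genes were higher in Barx1 intestine than in stomach (2.56%) and 327 were lower (2.64%). At a difference of 1 or more, 47 were higher (0.379%) and 76 were lower (0.613%). At an unadjusted p under 0.05 in limma, 1527 of the 12393 genes were higher and 1473 lower. Counts within lists at that cutoff are to be read beside these. The median difference over all genes was -0.00077, with quartiles of -0.11 and 0.11. Subtracting 1 array from another gave an SD over genes of 0.149 for the stomach pair and 0.199 for the Barx1 intestine pair, against 0.295 to 0.337 between arrays of the 2 groups. Readings near or below an array's lower quartile (4.72 to 4.76) may be background, in which case the true difference can be larger than the one given.

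The calls need both arrays of each group. Without stomach replicate 2, limma called 0 genes, although 1001 were higher and 905 lower at an unadjusted p under 0.05. It called 3 higher and 9 lower without stomach replicate 1, 3 and 2 without Barx1 intestine replicate 1, and 33 and 80 without Barx1 intestine replicate 2. In those fits the lone array is assumed to vary like the other groups. Of the 94 called genes that the naming rule selected, all 94 lost the call without stomach replicate 2, and 0 changed direction when any array was left out. The results below therefore give array values for many of the named genes, in some cases without those of control intestine. Other genes are given by their difference alone.

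Barx1 itself was raised in Barx1 intestine without reaching its stomach level. The stomach arrays read 9.82 and 9.79, the Barx1 intestine arrays 8.66 and 8.79 and the intestine arrays 5.13 and 4.93. The Barx1 intestine arrays lay below both stomach arrays and 3.69 above the intestine mean. The difference from stomach was -1.08 (SE 0.09, limma adjusted p = 0.0120), and the adjusted p was 0.0817 without stomach replicate 1, 0.108 without stomach replicate 2 and 0.0718 without Barx1 intestine replicate 1. Where the probe set lies relative to the Rosa26 transgene is not given in the sources used here, so this reading sums any transgenic and endogenous transcript that it detects. Nkx3-2, the locus that carries the Cre allele, read 4.93 and 5.10 in stomach and 5.12 and 4.82 in Barx1 intestine, with a difference of -0.04 (limma adjusted p = 0.870) at levels near the lower quartile.

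Genes that set stomach and intestine apart show how near Barx1 intestine came to stomach. Of 110 genes that were higher in stomach than in intestine by 1 or more and called (0.888% of all genes), 72 were called below stomach in Barx1 intestine, 37 were not called and 1 was called above it. Against control intestine, 36 of the 110 were called higher in Barx1 intestine (1.86% of all genes were) and 72 were not called. Of 166 genes higher in intestine by 1 or more (1.34% of all genes), 65 were called above stomach in Barx1 intestine, 100 were not called and 1 was called below it. Against control intestine, 73 of these 166 were called lower (2.12% of all genes were). With no limit on size, the controls themselves were called apart in 8.86% of all genes with stomach higher and in 8.09% with stomach lower. These comparisons share their arrays, so a chance high reading in stomach raises both stomach differences, and the counts describe these arrays only. A gene that was not called may still differ from stomach: 18 of the 110 and 54 of the 166 were called apart from neither organ.

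Genes of the extracellular matrix were among the stomach features furthest from being given by BARX1. Aspn encodes asporin, a small leucine-rich proteoglycan of the matrix. It read 7.53 and 7.79 in stomach and 4.08 and 4.39 in Barx1 intestine, with 5.23 and 5.90 in control intestine. The difference from stomach was -3.42 (SE 0.24, limma adjusted p = 0.0109), and the Barx1 intestine arrays fell below both controls. Acan encodes aggrecan, the large proteoglycan best known from cartilage. Its stomach arrays read 7.65 and 7.73, its Barx1 intestine arrays 4.69 and 4.31 and its intestine arrays 4.33 and 4.57. Both intestinal groups therefore lay near or below the lower quartile, and the difference from stomach was -3.19 (SE 0.15, adjusted p = 0.00408). Medag, a gene linked to the formation of fat cells in the mesentery, gave 7.73 and 8.56 in stomach against 4.61 and 4.86 in Barx1 intestine and 4.76 and 5.13 in intestine, a difference of -3.41 (adjusted p = 0.0120).

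**Figure D1:**
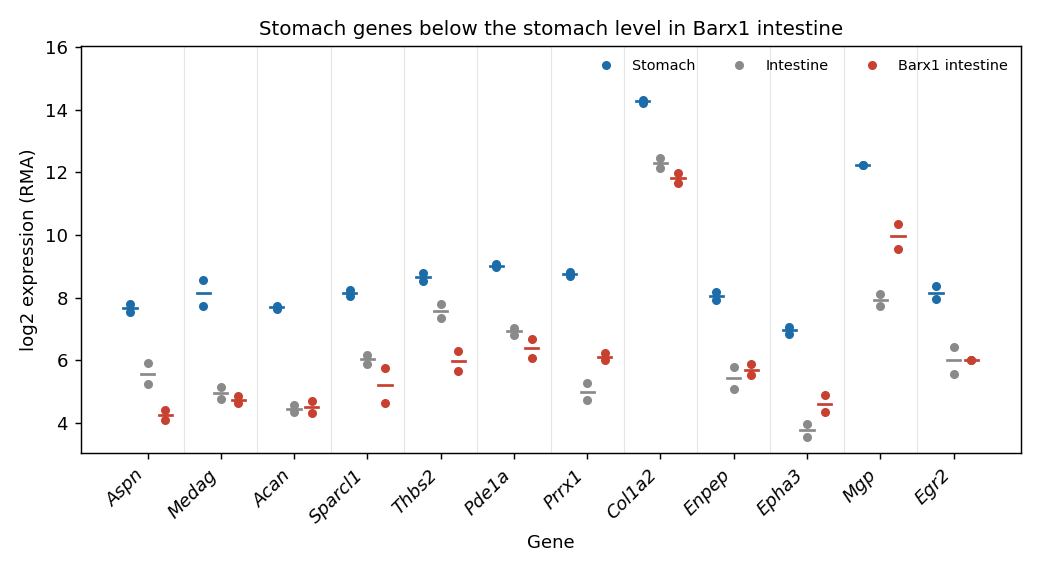
Log2 expression (RMA) of the 12 genes that were higher in stomach than in intestine by 1 or more and had the largest deficit to stomach in Barx1 intestine, with 1 point per array, 2 arrays per group and a bar at the mean. Aspn, Medag and Acan in Barx1 intestine sit at or below control intestine, whereas Prrx1 and Mgp lie between the control groups.

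Col1a2, a chain of type I collagen, was among the brightest genes on the arrays. It read 14.23 and 14.32 in stomach, 11.66 and 11.97 in Barx1 intestine and 12.13 and 12.47 in intestine. The deficit to stomach was -2.46 (SE 0.15, limma adjusted p = 0.00832), at levels far from background. Sparcl1, a matricellular protein of the SPARC family, read 8.06 and 8.23 in stomach and 4.64 and 5.76 in Barx1 intestine (-2.95, adjusted p = 0.0187). Its Barx1 intestine arrays were more than 1 unit apart, yet both lay below both stomach arrays. Thbs2, thrombospondin 2, read 8.53 and 8.78 in stomach, 5.66 and 6.28 in Barx1 intestine and 7.79 and 7.34 in intestine. Its deficit was -2.68 (adjusted p = 0.0123), and Barx1 intestine was also called below intestine (-1.60, adjusted p = 0.0374).

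Mgp, matrix Gla protein, an inhibitor of calcification, was given in part. It read 12.24 and 12.24 in stomach, 9.56 and 10.34 in Barx1 intestine and 7.74 and 8.12 in intestine. Barx1 intestine lay between the controls, 2.02 above intestine (limma adjusted p = 0.0252) and -2.29 from stomach (adjusted p = 0.0173). Prrx1, a paired-related homeobox gene of limb and craniofacial mesenchyme, showed the same order. Its arrays read 8.68 and 8.82 in stomach, 6.22 and 6.01 in Barx1 intestine and 4.73 and 5.27 in intestine. Its difference was 1.12 from intestine (adjusted p = 0.0417) and -2.64 from stomach (adjusted p = 0.0109). Of the 12 stomach genes with the largest deficits, 2 were thus called above intestine, 2 were called below it (Aspn and Thbs2) and 8 were not called from it. These 12 were picked for low readings in Barx1 intestine, so that count describes them only. Of all 110 genes higher in stomach by 1 or more, 36 were called above intestine.

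The other members of these 12 have varied roles. Pde1a, a calcium-calmodulin dependent phosphodiesterase that breaks down cyclic nucleotides, read 8.98 and 9.07 in stomach and 6.07 and 6.67 in Barx1 intestine (-2.65, limma adjusted p = 0.0114). Enpep, aminopeptidase A, which cleaves angiotensin II, read 7.91 and 8.18 against 5.51 and 5.89 (-2.35, adjusted p = 0.0158). Epha3, an ephrin receptor, read 6.84 and 7.05 against 4.33 and 4.89 (-2.34, adjusted p = 0.0136), with dimmer probe sets at -0.90 and -0.28 that did not pass. Each of these 3 genes had its Barx1 intestine arrays more than 1 unit below the lower stomach array. Egr2, a zinc finger transcription factor of the immediate early class, read 7.94 and 8.37 in stomach, 6.02 and 6.01 in Barx1 intestine and 5.55 and 6.44 in intestine (-2.14, adjusted p = 0.0257).

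The 250 bases before the start of transcription are shown for 2 stomach genes that were not given, Aspn and Prrx1, and 2 intestinal genes that persisted, Mmp10 and Rgs4, because the last 2 differ in how far they moved from intestine. The sequences are those of RefSeq on GRCm38.p6 and end at the base before the start. Capitals mark matches on either strand to TAATTA, the core that many homeodomain proteins bind, TGANTCA, the AP-1 site, or TATAAA, the TATA box. The searched motifs do not overlap each other here. The Aspn region is chr13:49544193-49544442 on the plus strand, and that of Prrx1 is chr1:163313651-163313900 on the minus strand. The Mmp10 region is chr9:7502092-7502341 on the plus strand, and that of Rgs4 is chr1:169747643-169747892 on the minus strand.
Aspn: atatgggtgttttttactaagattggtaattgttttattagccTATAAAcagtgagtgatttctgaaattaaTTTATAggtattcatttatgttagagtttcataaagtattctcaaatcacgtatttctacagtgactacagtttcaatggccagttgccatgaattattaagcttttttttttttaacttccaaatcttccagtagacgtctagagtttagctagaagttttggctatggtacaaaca
Prrx1: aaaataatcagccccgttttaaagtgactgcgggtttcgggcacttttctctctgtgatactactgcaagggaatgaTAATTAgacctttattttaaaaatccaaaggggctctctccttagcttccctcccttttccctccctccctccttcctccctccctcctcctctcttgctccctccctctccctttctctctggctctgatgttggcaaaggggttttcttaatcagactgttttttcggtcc
Mmp10: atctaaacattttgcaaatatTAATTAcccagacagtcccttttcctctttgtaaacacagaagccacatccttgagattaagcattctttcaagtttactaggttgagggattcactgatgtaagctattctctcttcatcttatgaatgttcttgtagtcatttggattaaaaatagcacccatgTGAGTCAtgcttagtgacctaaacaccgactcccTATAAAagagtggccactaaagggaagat
Rgs4: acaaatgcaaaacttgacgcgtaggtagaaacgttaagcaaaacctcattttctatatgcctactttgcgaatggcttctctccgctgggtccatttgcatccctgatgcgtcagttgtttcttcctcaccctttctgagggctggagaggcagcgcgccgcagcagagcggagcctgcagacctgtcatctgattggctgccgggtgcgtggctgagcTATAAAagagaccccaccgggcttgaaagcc

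Aspn held TATAAA at 207 bases and its reverse complement, TTTATA, at 178 bases before the start. Prrx1 held TAATTA at 173 bases. Mmp10 held all 3 motifs, TAATTA at 229, TGAGTCA at 63 and TATAAA at 29 bases, and Rgs4 held TATAAA at 31 bases. Over 32851 RefSeq promoters of the same length, 4.84% held TAATTA, 6.75% TGANTCA and 12.4% TATAAA. These are shares of single promoters, whereas a gene below was counted if any of its promoters held the motif. The gene counts therefore do not compare directly with these shares. Of the 12 stomach genes not given, 10 were matched to a promoter, and 1 of these held TAATTA, 0 TGANTCA and 4 TATAAA. Of the 12 intestinal genes that persisted, 9 were matched, and 1 held TAATTA, 1 TGANTCA and 3 TATAAA. A match describes letters in the window, and it is not a shown binding site.

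Part of the matrix genes were called below stomach and 0 above it. Of 16 collagens measured, 6 were called lower, 0 higher and 10 were not called, with a median of -0.61 against -0.00077 over all genes. Col1a1, the partner chain of Col1a2, read 11.37 and 11.40 in stomach and 10.24 and 10.50 in Barx1 intestine (-1.01, limma adjusted p = 0.0128). Col3a1, the chain of type III collagen, fell by 1.06 (adjusted p = 0.0252), and Col6a2, a chain of the type VI collagen of the pericellular matrix, fell by 0.89 (adjusted p = 0.0237). The basement membrane collagens Col4a1 and Col4a2, named after their values were seen, were at 0.12 and 0.13 and were not called. The collagen calls weaken when stomach or Barx1 intestine keeps only 1 array, as set out above for all genes. The collagen median ran from -0.76 to -0.47 when 1 of those arrays was left out.

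Among 29 genes of elastic fibres, proteoglycans and matricellular proteins, 12 were called lower, 0 higher and 17 were not called, with a median of -0.47. Lox, the lysyl oxidase that cross-links collagen and elastin, read 12.60 and 12.88 in stomach and 11.66 and 11.62 in Barx1 intestine (-1.10, limma adjusted p = 0.0123). Fbln2, the elastic fibre protein fibulin 2, read 11.52 and 11.48 against 10.80 and 10.69 (-0.75, adjusted p = 0.0120). For both genes the Barx1 intestine arrays lay below both stomach arrays, as in 28.5% of all genes. The calls of this list likewise weaken when stomach or Barx1 intestine keeps only 1 array. The list median ran from -0.52 to -0.32 when 1 of those arrays was left out. Postn, periostin, did not follow the organ difference, since it was high in both controls: 11.75 and 12.03 in stomach and 12.43 and 12.66 in intestine, against 9.88 and 10.25 in Barx1 intestine. It was called below stomach (-1.82, adjusted p = 0.0123) and below intestine (-2.48, adjusted p = 0.00477).

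**Figure D2:**
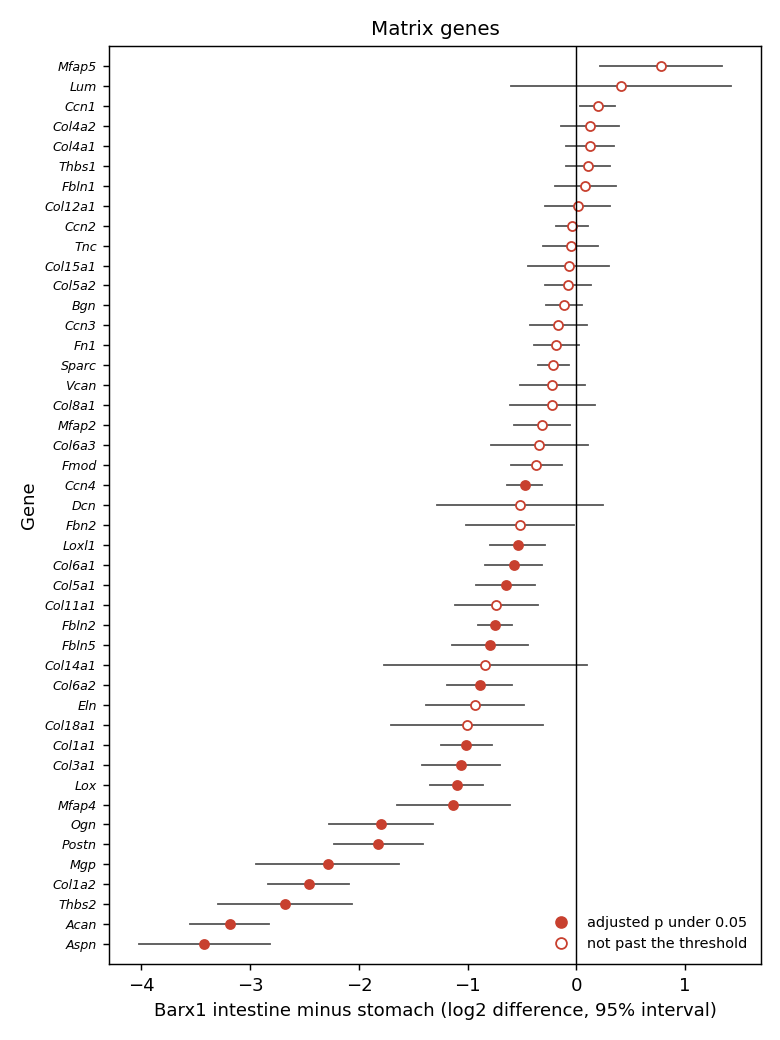
Barx1 intestine minus stomach (log2 difference, with the 95% interval of the limma fit) for each measured collagen, elastic fibre, proteoglycan and matricellular gene; filled points passed an adjusted p of 0.05. All filled points lie to the left of 0, and Aspn, at -3.42, is furthest from it.

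Matrix-degrading enzymes showed a mixed picture. Of 16 matrix proteases and inhibitors, 2 were called higher (Mmp10 and Mmp13) and 1 lower, with a median of -0.16. The lower one was Timp3, a tissue inhibitor of metalloproteinases, at 11.24 and 11.26 in stomach, 10.67 and 10.61 in Barx1 intestine and 11.41 and 11.41 in intestine (-0.61, limma adjusted p = 0.0123). Its Barx1 intestine arrays were below all 4 control arrays. Of 14 cartilage and tendon genes, 1 was called, which was Acan. Scx and Tnmd, a transcription factor and a membrane protein of tendon, had differences of -0.50 and -0.95 that did not pass (adjusted p = 0.184 and 0.116).

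Several transcription factors that were higher in stomach than in intestine were called below stomach in Barx1 intestine. Nr2f1, an orphan nuclear receptor, read 10.29 and 10.46 in stomach, 8.37 and 8.43 in Barx1 intestine and 6.93 and 7.38 in intestine. Barx1 intestine was called on both sides, 1.25 above intestine (limma adjusted p = 0.0222) and -1.97 from stomach (adjusted p = 0.0114). Its relative Nr2f2 stayed with intestine: 10.27 and 10.21 in stomach, 9.31 and 9.33 in Barx1 intestine and 9.28 and 9.32 in intestine. It differed from stomach by -0.92 (adjusted p = 0.00832) and from intestine by 0.02 (95% interval -0.13 to 0.16). Gata6, a zinc finger factor of gut and heart, read 8.84 and 8.90 in stomach, 7.61 and 7.47 in Barx1 intestine and 8.17 and 7.87 in intestine (-1.33, adjusted p = 0.0120). Its Barx1 intestine arrays lay below all 4 control arrays, and the difference of -0.48 from intestine did not pass (adjusted p = 0.0799). Osr1, an odd-skipped zinc finger factor of foregut mesenchyme, read 8.87 and 8.86 in stomach, 8.06 and 8.08 in Barx1 intestine and 7.60 and 7.87 in intestine (-0.80, adjusted p = 0.0187). In each of these 4 genes every Barx1 intestine array lay below both stomach arrays, as in 28.5% of all genes.

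Tlx1, the homeobox gene required for the spleen, was at the intestinal level. It read 6.09 and 5.94 in stomach, 4.68 and 4.70 in Barx1 intestine and 4.66 and 4.68 in intestine. The difference from stomach was -1.33 (SE 0.07, limma adjusted p = 0.00553), with Barx1 intestine and intestine near the lower quartile. Of 7 spleen primordium regulators measured, 3 were called lower (Tlx1, Nr2f2 and Barx1) and 0 higher, and all 7 differences were below 0 (median -0.92). Wt1, the Wilms tumour gene of mesothelium and spleen mesenchyme, had a difference of -1.12 that did not pass (adjusted p = 0.0605). Of 14 stomach and pylorus regulators, 1 was called higher (Gata3) and 3 lower (Prrx1, Barx1 and Osr1). Of 15 intestine mesenchyme regulators, 1 was called higher and 4 lower (Nr2f1, Gata6, Nr2f2 and Meis1), and Nr2f1, Gata6 and Nr2f2 were higher in control stomach than in control intestine by 3.22, 0.86 and 0.94. The higher one was Foxf2, a forkhead factor of gut mesenchyme, which is described with the intestinal features.

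Other genes of the stomach, sphincter factors among them, read at the stomach level within a stated error. Isl1, the LIM homeobox gene of the pylorus, read 9.56 and 9.43 in stomach and 9.72 and 9.75 in Barx1 intestine, against 5.31 and 5.06 in intestine. The difference from stomach was 0.24 with a 95% interval from -0.002 to 0.49 (limma adjusted p = 0.209), so a deficit beyond a small fraction of a log2 unit lay outside it. Six2, a homeobox gene of the pyloric region, read 8.04 and 7.86 against 8.04 and 8.13, with 5.79 and 5.94 in intestine, and differed by 0.13 (95% interval -0.09 to 0.36, adjusted p = 0.423). For Six2 the higher stomach array and the lower Barx1 intestine array met at the second decimal, and for Isl1 both Barx1 intestine arrays lay above both stomach arrays. Nrk, a kinase of the germinal centre kinase family, read 10.44 and 10.54 in Barx1 intestine and 10.61 and 10.77 in stomach (-0.20, 95% interval -0.41 to 0.02, adjusted p = 0.237). Ccn3, a secreted matricellular protein, read 7.94 and 8.03 against 8.01 and 8.29 (-0.17, 95% interval -0.43 to 0.09, adjusted p = 0.388).

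For 4 more genes the absence of a call says less. Pitx1, the hindlimb and foregut homeobox gene, read 8.09 and 8.28 in stomach, 7.43 and 7.39 in Barx1 intestine and 5.34 and 4.76 in intestine. Its difference of -0.77 had a 95% interval of -1.25 to -0.30 (limma adjusted p = 0.0811). Fap, a serine protease of fibroblasts, read 9.22 and 9.32 in stomach, 8.34 and 8.56 in Barx1 intestine and 4.90 and 5.50 in intestine, with a difference of -0.82 (95% interval -1.32 to -0.33, adjusted p = 0.0781). Both genes had Barx1 intestine arrays below both stomach arrays, as did 28.5% of all genes, although the difference did not pass. Calcb, a gene for a calcitonin-related peptide, and Kazald1, a secreted protein with a Kazal domain, had differences of -0.78 (adjusted p = 0.171) and -1.34 (adjusted p = 0.0544). Their Barx1 intestine arrays were nearly 1 unit apart.

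**Figure D3:**
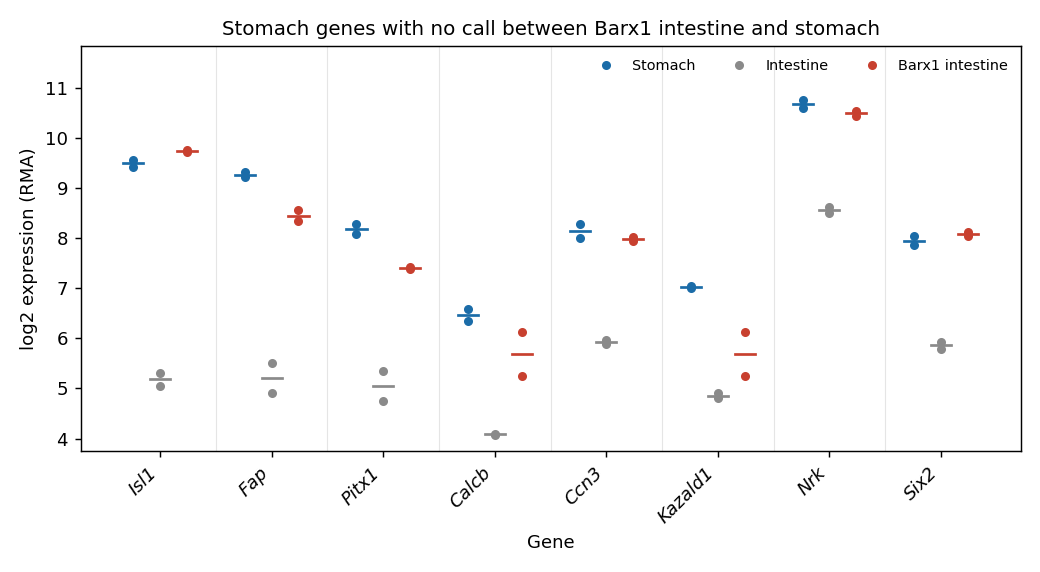
Log2 expression (RMA) of the 8 genes with the largest excess of stomach over intestine among those not called between Barx1 intestine and stomach, with 1 point per array, 2 arrays per group and a bar at the mean. Isl1, Ccn3, Nrk and Six2 in Barx1 intestine sit at the stomach level, whereas Fap, Pitx1, Calcb and Kazald1 sit below it without passing the test.

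Smooth muscle contractile genes were on average high in all 3 groups, control intestine included. Their list averaged 10.86 and 10.91 in stomach, 10.62 and 10.69 in Barx1 intestine and 10.77 and 10.87 in intestine. Acta2, smooth muscle actin, read 14.61 and 14.61 in stomach and 14.57 and 14.55 in Barx1 intestine, a difference of -0.05 (95% interval -0.19 to 0.08, limma adjusted p = 0.607). Tagln, transgelin, differed by 0.05 (adjusted p = 0.610) and Actg2, enteric smooth muscle actin, by -0.12 (adjusted p = 0.320). These 3 genes lay near the top of the array's range, where readings can be compressed. Myh11, the smooth muscle myosin heavy chain, read 11.05 and 11.26 against 10.39 and 10.72 (-0.60, 95% interval -0.97 to -0.24, adjusted p = 0.0781). A second, dimmer Myh11 probe set gave -0.51 and passed (limma adjusted p over all probe sets = 0.0361). Cnn1, calponin, differed by -0.36 (adjusted p = 0.0580). In Myh11 and Cnn1 the groups did not overlap, but the differences of the probe sets used did not pass, and 28.5% of all genes had every Barx1 intestine array below both stomach arrays.

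Myocd, Des and Pdlim3 read at or below the intestinal level. Of 22 smooth muscle contractile genes, 3 were called lower and 1 higher, with a median of -0.11. Differences were below 0 in 18 of the 22, against 50.2% of all genes. Myocd, the myocardin coactivator that drives smooth muscle genes with SRF, read 7.33 and 7.19 in stomach, 6.34 and 6.41 in Barx1 intestine and 6.36 and 6.37 in intestine. It differed from stomach by -0.89 (SE 0.07, limma adjusted p = 0.0114) and from intestine by 0.01 (95% interval -0.17 to 0.18). Des, desmin, the muscle intermediate filament, read 10.29 and 10.32 against 9.21 and 9.10 (-1.16, adjusted p = 0.0187), and Pdlim3, a PDZ and LIM protein of the actinin lattice, read 8.16 and 8.45 against 6.95 and 6.80 (-1.43, adjusted p = 0.0230). Synpo2, an actin-bundling protein of the muscle Z disc, went the other way, 6.75 and 6.59 in stomach against 7.21 and 7.33 in Barx1 intestine and 7.51 and 7.61 in intestine (0.60, adjusted p = 0.0271). Of 14 skeletal muscle genes, 1 was called, which was Des.

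Interstitial cells of Cajal, the pacemakers of gut muscle, arise from mesenchyme that expresses KIT and lie beside fibroblast-like cells that express PDGFRA. Of 6 genes of this list, 2 were called lower and 0 higher. Pdgfra, a growth factor receptor, read 9.95 and 10.13 in stomach, 8.76 and 9.17 in Barx1 intestine and 8.41 and 8.41 in intestine (-1.07, limma adjusted p = 0.0240). The Barx1 intestine arrays lay between the controls, and their excess of 0.55 over intestine did not pass (adjusted p = 0.0967). Kit, below the lower quartile in every array, differed by -0.38 (adjusted p = 0.0326). Dimmer probe sets of Pdgfra and Kit gave -0.60 and -0.12 and did not pass. With probe set means, 1 gene of this list was called lower in place of 2. Ano1, the chloride channel of these cells, was at 0.56 (adjusted p = 0.118).

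In Wnt signalling the genes called below stomach were R-spondins. Rspo2, an R-spondin that strengthens Wnt signals, read 6.41 and 6.50 in stomach, 5.09 and 5.13 in Barx1 intestine and 4.78 and 4.70 in intestine. It differed from stomach by -1.35 (SE 0.07, limma adjusted p = 0.00425) and was 0.37 above intestine (adjusted p = 0.0461). Rspo1 differed by -0.62 (adjusted p = 0.0149) at levels near the lower quartile. These were the 2 lower calls among 15 Wnt ligands and targets, which had 0 higher calls. Of 10 secreted Wnt antagonists, 1 was called higher, Dkk2, and 0 lower. Sfrp2 and Frzb, secreted Frizzled-related proteins, had differences of -0.61 and -0.36 that did not pass (adjusted p = 0.151 and 0.0953).

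Signals and receptors of other pathways were split between lower and higher calls. Gas1, a Hedgehog co-receptor, read 12.02 and 12.26 in stomach, 10.76 and 11.11 in Barx1 intestine and 10.68 and 10.95 in intestine (-1.21, limma adjusted p = 0.0230), so Barx1 intestine lay with intestine. Of 12 Hedgehog response genes, 1 was lower (Gas1) and 1 higher (Foxf2). Bmp4, a bone morphogenetic protein of gut mesenchyme, was at 11.12 and 11.15 in stomach and 11.29 and 11.46 in intestine but 10.28 and 10.43 in Barx1 intestine (-0.78, adjusted p = 0.0158), below both controls. Of 19 BMP genes, 2 were lower (Bmp4 and Bambi) and 3 higher (Id4, Nog and Smad7). Spry1, a feedback inhibitor of FGF receptors, fell by 0.83 (adjusted p = 0.0324), and Fgfr1, an FGF receptor, fell by 0.44 (adjusted p = 0.0310). Of 15 FGF pathway genes, 2 were lower and 3 higher. Igfbp3, a binding protein of insulin-like growth factors, read 8.15 and 8.46 against 7.27 and 7.35 (-0.99, adjusted p = 0.0164). Of 15 IGF pathway and imprinted growth genes, 2 were lower (Igfbp3 and Peg3) and 1 higher (Dlk1).

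Axon guidance cues, which also pattern mesenchyme, were split as well. Of 16 measured, 3 were called lower (Epha3, Slit2 and Slit3) and 2 higher (Sema3a and Epha4). Slit2, a secreted repellent, read 10.53 and 10.59 in stomach, 9.64 and 9.91 in Barx1 intestine and 9.43 and 9.22 in intestine (-0.79, limma adjusted p = 0.0278). Epha4, an ephrin receptor, read 8.0 and 8.0 in stomach, 8.60 and 9.01 in Barx1 intestine and 9.27 and 9.23 in intestine (0.81, adjusted p = 0.0373). The mean of Barx1 intestine was nearer the intestinal than the stomach mean for Epha3 and Epha4. It was nearer the stomach mean for the receptor Nrp2, named after its values were seen, at 8.33 and 8.21 in stomach, 8.25 and 8.31 in Barx1 intestine and 8.88 and 9.13 in intestine (0.02 from stomach, adjusted p = 0.940). Sema3a, a secreted semaphorin, was above both controls, 0.62 over stomach (adjusted p = 0.0141) and 0.86 over intestine (adjusted p = 0.00610).

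Some proliferation genes were slightly lower than in stomach. Of 24 cell cycle genes, 6 were called lower and 0 higher, with a median of -0.25. These calls need both arrays of stomach and of Barx1 intestine. The median ran from -0.31 to -0.23 when 1 of those arrays was left out. Cenpf, a kinetochore protein, read 9.65 and 9.58 in stomach, 9.08 and 9.11 in Barx1 intestine and 8.75 and 8.83 in intestine (-0.52, limma adjusted p = 0.0189), and its dimmer probe set gave 0.05. Ccna2, cyclin A2, read 11.23 and 11.25 in stomach, 10.77 and 10.80 in Barx1 intestine and 10.40 and 10.46 in intestine (-0.45, adjusted p = 0.0204). In both genes Barx1 intestine lay between intestine and stomach. Mki67, the proliferation marker, was at -0.47 (adjusted p = 0.0337).

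Among the intestinal features that persisted, Hoxc8 stood at the front. This homeobox gene of the trunk read 3.89 and 3.66 in stomach, below the lower quartile, against 8.77 and 8.46 in Barx1 intestine and 8.52 and 8.14 in intestine. The excess over stomach was 4.84 (SE 0.17, 95% interval 4.41 to 5.27, limma adjusted p = 0.00325). The difference from control intestine was 0.29 (95% interval -0.14 to 0.72, adjusted p = 0.379), with overlapping arrays. Hoxc8 kept its call in 5 of 6 fits that left out 1 array, and lost it without stomach replicate 2.

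Of 19 Hox genes of paralogs 6 to 13, 4 were called higher than in stomach and 0 lower, with a median of 0.19. Of 12 genes of paralogs 1 to 5, 0 were called by limma (median -0.01). At an unadjusted p under 0.05, 2 were higher (Hoxc4 and Hoxc5) and 2 lower (Hoxa2 and Hoxa4), against 1527 and 1473 of all 12393 genes. Hoxc9 read 7.0 and 7.10 in stomach, 7.80 and 7.73 in Barx1 intestine and 7.74 and 7.41 in intestine (0.71, limma adjusted p = 0.0358). Hoxb6 read 8.30 and 8.49 in stomach, 9.24 and 9.17 in Barx1 intestine and 8.86 and 8.60 in intestine (0.81, adjusted p = 0.0253). Hoxd8 read 6.76 and 6.73 in stomach, 8.12 and 7.87 in Barx1 intestine and 7.17 and 7.07 in intestine, and was called above stomach (1.25, adjusted p = 0.0114) and above intestine (0.88, adjusted p = 0.0188). Hoxc6 depended on the probe set: the 1 used gave 0.27 (adjusted p = 0.114), and its 2 dimmer probe sets gave 1.25 and 1.08 (limma adjusted p over all probe sets = 0.0101 and 0.0250). With probe set means, 5 genes of this list were called higher in place of 4. Between the controls, Hoxb6 and Hoxd8 were not called (limma adjusted p = 0.0976 and 0.0523). Hoxa9, in contrast, was lowest in intestine, at 5.73 and 5.10, and read 7.46 and 7.24 in Barx1 intestine against 7.08 and 7.05 in stomach (0.28, adjusted p = 0.465). Hoxb9 and Hoxa7 were lowest in intestine too, with stomach over intestine by 0.75 and 0.79 (limma adjusted p = 0.0330 and 0.00492).

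**Figure D4:**
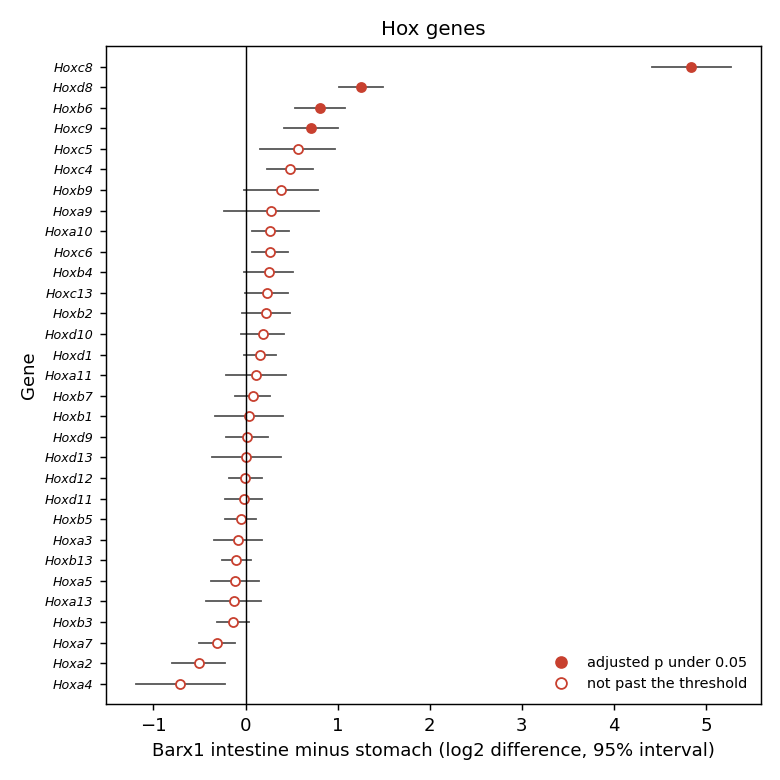
Barx1 intestine minus stomach (log2 difference, with the 95% interval of the limma fit) for the 31 measured Hox genes; filled points passed an adjusted p of 0.05. Hoxc8 stands apart at 4.84, followed by Hoxd8 at 1.25, Hoxb6 at 0.81 and Hoxc9 at 0.71, and the points not past the threshold run from Hoxa4 at -0.71 to Hoxc5 at 0.56.

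The stromelysin Mmp10 persisted in part. It read 11.46 and 11.76 in intestine, 9.06 and 8.88 in Barx1 intestine and 6.94 and 6.74 in stomach. Barx1 intestine was 2.13 above stomach (SE 0.13, limma adjusted p = 0.00832) and differed from intestine by -2.64 (adjusted p = 0.00259), so it lay between the controls. Mmp13, a collagenase, showed the same order, 9.72 and 9.75 in intestine, 7.58 and 7.90 in Barx1 intestine and 6.76 and 6.06 in stomach, with 1.33 over stomach (adjusted p = 0.0414). Rgs4, a regulator that shortens signalling by G proteins, persisted at or above the intestinal level, at 9.15 and 9.02, against 8.76 and 8.26 in intestine and 7.14 and 6.82 in stomach (2.11, adjusted p = 0.0123). Ptges, prostaglandin E synthase, read 8.60 and 8.54 in intestine, 8.44 and 8.55 in Barx1 intestine and 6.88 and 6.79 in stomach (1.66, adjusted p = 0.00325). Its difference from intestine was -0.08 (95% interval -0.25 to 0.09).

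**Figure D5:**
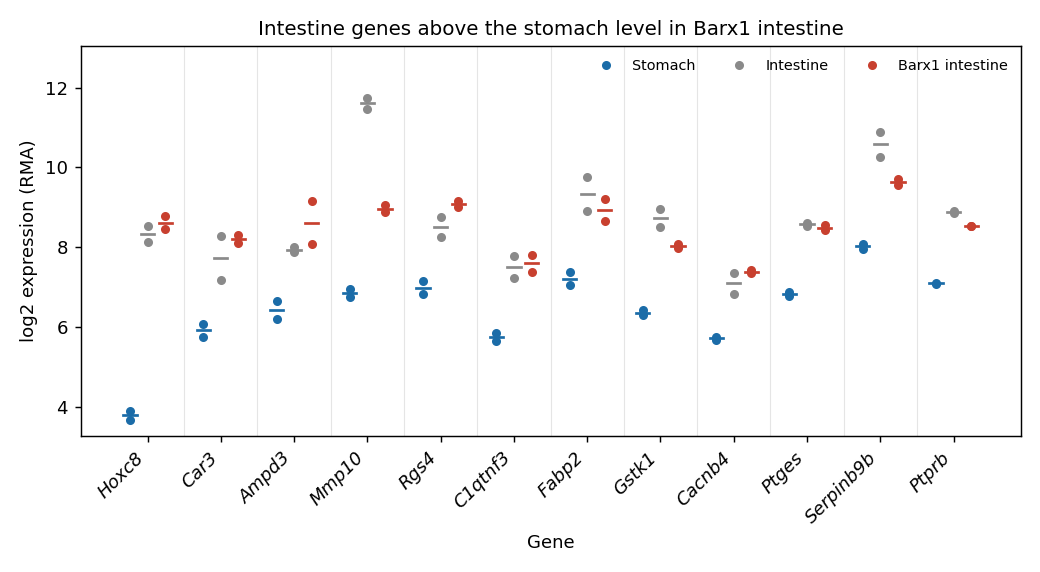
Log2 expression (RMA) of the 12 genes that were higher in intestine than in stomach by 1 or more and had the largest excess over stomach in Barx1 intestine, with 1 point per array, 2 arrays per group and a bar at the mean. Hoxc8, Rgs4, C1qtnf3 and Ptges in Barx1 intestine sit at the intestinal level, whereas Mmp10 lies between the control groups.

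Enzymes were among the 12 intestinal genes with the largest excess. Car3, carbonic anhydrase 3, read 6.08 and 5.75 in stomach, 8.10 and 8.31 in Barx1 intestine and 8.27 and 7.19 in intestine (2.29, limma adjusted p = 0.0317). A dimmer Car3 probe set gave 0.61 and did not pass. Ampd3, an AMP deaminase, read 6.65 and 6.20 in stomach, 8.08 and 9.15 in Barx1 intestine and 7.87 and 8.01 in intestine (2.19, adjusted p = 0.0358), with its Barx1 intestine arrays about 1 unit apart. Gstk1, a glutathione transferase, read 6.42 and 6.29 in stomach, 8.09 and 7.98 in Barx1 intestine and 8.96 and 8.51 in intestine (1.69, adjusted p = 0.0123). All 3 had non-overlapping arrays in stomach and Barx1 intestine, as did 29.5% of all genes in that direction. C1qtnf3, a secreted C1q-related protein, and Cacnb4, a calcium channel subunit, were higher by 1.85 (adjusted p = 0.0192) and 1.68 (adjusted p = 0.0141). Serpinb9b, a serine protease inhibitor, was higher by 1.61 (adjusted p = 0.0219). Of the 12 intestinal genes with the largest excess, 10 were not called apart from control intestine and 2 were called below it (Mmp10 and Ptprb). These 12 were picked for high readings in Barx1 intestine, so that count describes them only. Of all 166 genes higher in intestine by 1 or more, 73 were called below intestine.

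Genes of retinoic acid synthesis kept part of their intestinal level. Aldh1a3, a retinaldehyde dehydrogenase, read 10.72 and 10.82 in intestine, 8.62 and 8.89 in Barx1 intestine and 7.76 and 7.75 in stomach. It was 1.00 above stomach (limma adjusted p = 0.0143) and differed from intestine by -2.01 (adjusted p = 0.00259). Aldh1a1, which encodes another such enzyme, was 0.95 above stomach (adjusted p = 0.0173) and also lay between the controls (-0.96 from intestine, adjusted p = 0.0204). Rarb, a retinoic acid receptor and a known target of the pathway, read 7.72 and 7.99 in stomach and 7.36 and 7.73 in control intestine, against 6.18 and 6.74 in Barx1 intestine (-1.39, adjusted p = 0.0349), below both controls. Its difference from intestine of -1.09 did not pass (adjusted p = 0.0614). In all, 2 of 13 retinoic acid pathway genes were called higher and 1 lower.

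Dkk2, Id4, Smad7 and Foxf2 were among the genes above stomach in lists whose calls, given above, went both ways or were few. Dkk2, a secreted regulator of Wnt receptors, read 8.87 and 9.03 in stomach, 9.91 and 10.06 in Barx1 intestine and 10.28 and 10.46 in intestine (1.03, limma adjusted p = 0.0140). Id4, a target of BMP signalling that blocks helix-loop-helix factors, read 10.37 and 10.38 in stomach, 11.31 and 11.22 in Barx1 intestine and 11.45 and 11.53 in intestine (0.89, adjusted p = 0.0114). Smad7, an intracellular inhibitor of the same pathway, read 9.77 and 9.74 in stomach, 10.48 and 10.36 in Barx1 intestine and 10.39 and 10.35 in intestine (0.67, adjusted p = 0.0140). The 3 genes had Barx1 intestine arrays at or near the intestinal arrays. Foxf2, a forkhead factor that Hedgehog signals maintain in gut mesenchyme, read 6.28 and 6.51 in stomach, 7.11 and 7.11 in Barx1 intestine and 7.88 and 7.72 in intestine. It was 0.71 above stomach (adjusted p = 0.0256) and -0.69 from intestine (adjusted p = 0.0308), between the controls. The FGF receptors Fgfr2 and Fgfr4 were higher by 0.71 (adjusted p = 0.0293) and 1.05 (adjusted p = 0.0363). The dimmer probe sets of Fgfr4 gave -0.07, -0.15, -0.07 and 0.34 and did not pass.

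Genes that act in contraction and its control included 4 of 13 that were called higher and 0 lower, among receptors and RGS genes. Besides Rgs4, Rgs16 read 9.42 and 9.22 in stomach, 10.48 and 10.49 in Barx1 intestine and 10.10 and 10.28 in intestine (1.16, limma adjusted p = 0.0120). Avpr1a, a vasopressin receptor, had another order, lowest in intestine at 5.16 and 5.17, then 6.95 and 7.21 in stomach and 7.97 and 7.92 in Barx1 intestine (0.87, adjusted p = 0.0150). P2ry14, a receptor of UDP-sugars, had nearly left its intestinal level, at 7.19 and 7.28 in intestine, 4.24 and 4.36 in Barx1 intestine and 3.82 and 3.92 in stomach. It remained 0.43 above stomach (adjusted p = 0.0412), with the arrays of both groups below the lower quartile.

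Kdr and Ptprb, genes of vessels, also persisted. Kdr, a VEGF receptor, read 7.09 and 6.89 in stomach, 8.05 and 8.49 in Barx1 intestine and 8.68 and 8.48 in intestine (1.28, limma adjusted p = 0.0218). Ptprb, the vascular endothelial receptor phosphatase, read 7.07 and 7.11 in stomach, 8.52 and 8.54 in Barx1 intestine and 8.87 and 8.92 in intestine (1.44, SE 0.06, adjusted p = 0.00325). Of 15 endothelial genes listed, which do not include Ptprb, 2 were called higher (Kdr and Emcn) and 0 lower. The median was -0.02, and 8 of the 15 differences were below 0. Emcn averaged 4.71 over all arrays, near the lower quartile. Flt1, also of this list, was at -0.51 and was not called, with dimmer probe sets at -0.36 and -0.50. The list's mean level was 5.49 and 5.50 in the stomach arrays and 5.60 and 5.58 in the Barx1 intestine arrays. The defining markers Pecam1 and Cdh5 were below the lower quartile in all of these arrays. Of 7 mesothelial genes, 1 was called higher, Podxl, a sialomucin, at 0.69 (adjusted p = 0.0412), with a dimmer probe set at -0.05.

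Epithelial transcripts moved with some persisting genes. Fabp2, the intestinal fatty acid binding protein of enterocytes, read 7.38 and 7.04 in stomach, 9.22 and 8.65 in Barx1 intestine and 8.90 and 9.76 in intestine (1.72, limma adjusted p = 0.0484). Apoa4, an enterocyte apolipoprotein, read 5.10 and 5.41 in stomach, 7.29 and 6.84 in Barx1 intestine and 5.70 and 6.46 in intestine (1.81, adjusted p = 0.0336), with a dimmer probe set at 0.85 that did not pass. These were the 2 genes called among 12 of intestinal epithelium, and all 12 differences were above 0, with a median of 0.61. The list's mean level was 5.19 and 5.08 in the stomach arrays, 6.10 and 5.79 in the Barx1 intestine arrays and 5.82 and 6.15 in the intestine arrays. Among 24 genes of gut endoderm in general and 10 of stomach epithelium, limma called 0, with medians of 0.23 and -0.04. At an unadjusted p under 0.05, 0 of either list were higher, and 1 gene of each list was lower. This was the same gene, Sox2, which is in both lists (-1.10, limma adjusted p = 0.103). The general endoderm list averaged 6.14 and 6.66 in the stomach arrays, 6.90 and 6.41 in the Barx1 intestine arrays and 7.64 and 6.89 in the intestine arrays. The part of residual epithelium in the persisting intestinal genes was not tested.

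Some strongly intestinal genes were not called from stomach in Barx1 intestine. Itih5, a matrix-stabilising inhibitor chain, fell from 8.66 and 9.40 in intestine to 4.02 and 4.75 in Barx1 intestine, against 5.18 and 5.20 in stomach. Its difference from stomach was -0.80 (95% interval -1.59 to -0.01, limma adjusted p = 0.202), at levels near background. Adamdec1, a metalloprotease, read 7.16 and 7.91 in intestine, 5.13 and 5.03 in Barx1 intestine and 5.05 and 4.36 in stomach, with a difference of 0.38 (95% interval -0.40 to 1.15, adjusted p = 0.510). For Spon2 and Mmp9 the interval lay above 0 although the adjusted p did not pass. Spon2, a secreted spondin, was at 1.62 (95% interval 0.78 to 2.46, adjusted p = 0.0579) and Mmp9, a gelatinase, at 1.30 (95% interval 0.42 to 2.18, adjusted p = 0.0977). The epithelial genes Tspan8, Dsp and Foxa1, for a tetraspanin, desmoplakin and a forkhead factor, were at 1.55, 1.61 and 1.00 (adjusted p = 0.0603, 0.0930 and 0.384). The chemokine Cxcl1 was at 0.82 (adjusted p = 0.364), with Barx1 intestine arrays of 7.18 and 8.47.

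A set of genes in Barx1 intestine lay above both control tissues. Gata3, a zinc finger factor of the pyloric sphincter, read 5.88 and 5.75 in stomach and 6.19 and 5.84 in control intestine, against 7.50 and 8.01 in Barx1 intestine. It was 1.94 above stomach (limma adjusted p = 0.0143) and 1.74 above intestine (adjusted p = 0.0198). Dlx2, a distal-less homeobox gene, read 7.45 and 7.27 in stomach and 8.01 and 7.66 in control intestine, against 9.15 and 8.93 in Barx1 intestine (1.68 over stomach, adjusted p = 0.0123). Both Barx1 intestine arrays exceeded all 4 control arrays for these genes. Dlk1, an imprinted transmembrane protein of immature mesenchyme, was 1.01 above stomach (adjusted p = 0.0103) and 1.5 above intestine (adjusted p = 0.00176). Pdk4, a kinase that restrains pyruvate oxidation, was 1.20 above stomach (adjusted p = 0.0148), and Kcnab1, a potassium channel subunit, 1.11 (adjusted p = 0.0140).

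Another set lay below both. Sptssb, a small subunit of serine palmitoyltransferase, read 7.66 and 7.95 in stomach and 9.01 and 8.58 in control intestine, against 6.04 and 6.02 in Barx1 intestine (-1.78 from stomach, limma adjusted p = 0.0123). Ptn, the growth factor pleiotrophin, was at 10.93 and 11.27 in stomach, 10.80 and 10.87 in intestine and 9.59 and 9.65 in the Barx1 group (-1.48, adjusted p = 0.0114). Ifitm1, an interferon-induced membrane protein, read 8.23 and 8.36 in stomach and 9.18 and 9.10 in control intestine, against 6.91 and 7.25 in Barx1 intestine (-1.22, adjusted p = 0.0143). With Aspn, Thbs2 and Postn above, these were the genes furthest below both controls. Since the Barx1 intestine arrays are common to both differences, a chance low reading there enters both.

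Genes of leukocytes and of enteric nerve cells had medians below 0. The 19 leukocyte and macrophage genes had a median difference of -0.85, with 17 below 0, but limma called 0. At an unadjusted p under 0.05, 0 were higher and 5 lower, against 1527 and 1473 of all 12393 genes. The mean level of these 19 genes was 8.32 and 8.03 in the stomach arrays, 7.0 and 7.90 in the Barx1 intestine arrays and 8.70 and 9.64 in the intestine arrays. Ccl12, a monocyte chemokine of mouse, moved with them, at 8.17 and 8.66 in stomach and 4.58 and 6.30 in Barx1 intestine (-2.98, limma adjusted p = 0.0433). The part of leukocytes in this difference was not tested. Of 15 genes of enteric neurons and glia, 2 were called lower and 0 higher, with a median of -0.25. Tubb3, the neuronal tubulin, read 8.30 and 8.36 in stomach and 6.01 and 6.83 in Barx1 intestine (-1.91, adjusted p = 0.0326), and Erbb3, a neuregulin receptor of glia, read 7.19 and 7.33 against 6.31 and 6.50 (-0.86, adjusted p = 0.0442). The list averaged 6.90 and 6.79 in stomach and 6.49 and 6.72 in Barx1 intestine, and its part in the axon guidance differences was not tested. Of 7 erythroid and 9 pancreas genes limma called 0, and at an unadjusted p under 0.05 0 of them were higher and 1, a pancreas gene, was lower.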

How the data were processed

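The authors deposited log2 levels for 22690 probe sets on 6 arrays, which they made with RMA, per the submitters' processing notes. Its version is not given in the sources used here. Because this method equalises the arrays' distributions, a shift common to most genes would be lost. Arrays have no read depth, and their number limits the precision. Platform annotation named 1 gene for 20380 probe sets, several for 691 and none for 1606. Each of 12393 genes was taken from 1 probe set, that of highest mean across the 6 arrays, which mattered for 4956 genes.

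All 6 arrays entered 1 fit of 3 group means in limma 3.58.1 (lmFit and eBayes; R 4.3.3; data.table, version 1.17.8), with 3 residual and 2.58 prior degrees of freedom, checked on simulated data. Adjusted p-values are limma's. Named genes were Barx1 and Nkx3-2, the 12 largest differences each way, 12 stomach genes not given, 12 intestinal genes that persisted, 8 each way that differed between the control organs by 2 or more and were not called from stomach, 6 each way outside both controls, up to 4 members of each of 35 lists, other list members in counts of 5 or fewer, Hox genes and abundant contractile genes. Members and lists were chosen with earlier results of these data known. Alternatives were the removal of dim genes, centring on array medians, another round of quantile normalisation, probe set means, a variance trend, a fit of 4 arrays, the replicate block, other thresholds and leaving out each array.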

Additional observations from a re-analysis of the deposited data

How the results depend on the processing

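The main counts were 317 genes higher and 327 lower. A filter on genes whose highest group mean was under 6 gave 591 and 540, and a variance trend 622 and 567. An adjusted p under 0.01 left 5 and 6, and a log2 difference of 1 or more left 47 and 76. Leaving out 1 array gave 0 to 356 higher and 0 to 371 lower, and moved the Barx1 difference between -1.15 and -1.01. Median centring, a second quantile normalisation, probe set means and the fit of 4 arrays kept both counts within 1.5 times. Same-numbered replicates had a correlation of deviations of -0.062 for stomach and Barx1 intestine. It was -0.216 for stomach and intestine and 0.203 for intestine and Barx1 intestine. The signs were mixed, and the numbers were not taken to pair the samples. With the replicate block, 141 genes were higher and 196 lower. Of the 94 called genes that the naming rule selected, 19 were not called with the block, 7 with probe set means, 6 in the fit of 4 arrays and 1 after a second quantile normalisation, and 0 changed direction in any alternative. Signal near the lower quartile limits Hoxc8, Acan, Medag, Aspn, Epha3, Tlx1 and Kit.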

Other observations

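Stress and immune gene groups were also measured. Of 14 immediate early genes, 1 was called higher in Barx1 intestine than in stomach and 2 lower. Dusp1, a phosphatase that switches off MAP kinases, read 11.40 and 11.41 in stomach, 12.31 and 12.23 in Barx1 intestine and 12.07 and 12.43 in intestine (0.86, limma adjusted p = 0.0268), so it stayed at the intestinal level. Junb, an AP-1 subunit, read 8.20 and 8.19 in stomach and 7.47 and 7.70 in Barx1 intestine (-0.61, adjusted p = 0.0368), and the other gene called lower was Egr2. Of 13 genes of glycolysis and hypoxia, 1 was called higher and 0 lower. Adm, the vasodilator adrenomedullin, read 9.85 and 9.83 in stomach, 11.08 and 11.16 in Barx1 intestine and 10.82 and 11.55 in intestine (1.28, adjusted p = 0.0414). The hypoxia genes Hk2 and Vegfa, a hexokinase and a vascular growth factor, were at -0.37 and -0.21 and did not pass (adjusted p = 0.0759 and 0.167).

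All 12 interferon response genes had differences below 0, with a median of -0.47, and limma called 0. At an unadjusted p under 0.05, 0 were higher and 5 lower, against 1527 and 1473 of all 12393 genes. Usp18, an interferon-induced protease, read 5.40 and 6.09 in stomach and 4.52 and 4.72 in Barx1 intestine (-1.12, limma adjusted p = 0.0527). Of 13 chemokines and receptors limma called 0, and at an unadjusted p under 0.05 1 was higher and 4 lower. Ccl2, a monocyte chemokine, read 9.79 and 9.76 in stomach, 8.58 and 9.48 in Barx1 intestine and 11.52 and 11.68 in intestine (-0.74, adjusted p = 0.185), so its intestinal excess was not seen in Barx1 intestine. Serpinb2, an inhibitor of plasminogen activators, was 1.86 above stomach (adjusted p = 0.0353), at 6.98 and 6.52 in Barx1 intestine against 5.16 and 4.62.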
